A study of Mus musculus with 8 samples.

Results

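Genes of mitochondrial fatty acid oxidation and ketone body use were compared in the inguinal white adipose tissue, the subcutaneous fat of the groin, of mice lacking the lysophosphatidic acid receptor gene Lpar4 and of wild-type mice. The set was a list of 30 genes named for their function. It was applied to the probe sets that the platform annotation pairs with a single gene, and each gene was read from its brightest probe set. This gave 28 of the 30 genes, among 18193 genes measured in all. The muscle isoform Cpt1b was left out because its probe set was annotated to several genes, and Acsl1 was not analysed here.

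The study compared 4 KO mice, which were male and Lpar4 -/Y (Lpar4 is X-linked), with 4 male WT littermates. Both groups had a C57BL/6 background, were 12 weeks old, ate standard chow and received no treatment that the labels name. Each mouse was a biological replicate with its own array, and how the allele was made is not given in the sources used here. All values are log2 signals, and every difference is KO minus WT. Levels are not compared between genes, since probe sets differ in brightness, and percentiles are given only as a rough rank for the tissue check.

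The tissue label was checked against adipocyte markers. Adiponectin (Adipoq) lay at percentile 99.99 of all probe sets in KO and 99.98 in WT. The brown fat protein Ucp1 hardly moved between arrays and is not read here. Of the other brown fat markers Cidea lay at percentile 80.3 in KO and 78.9 in WT, and Cox8b at 90.0 in KO and 85.0 in WT. Of the 3 probe sets for Lpar4, 1 was lower in KO (-1.12) and the other 2 were higher (0.53 and 0.71). Which of them lie in the deleted part is not known here, so the genotype labels were not checked by them. Skeletal muscle genes set replicates 1 and 2 of both genotypes apart from replicates 3 and 4, and results are therefore also given within these sets.

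Long-chain fatty acids are activated to acyl-CoA, carried across the inner mitochondrial membrane as carnitine esters, and shortened by repeated rounds of dehydrogenation, hydration, a further dehydrogenation and thiolysis. The first dehydrogenation of each round hands its electrons to the electron transfer flavoprotein and on to the respiratory chain. Ketone bodies, made mainly in the liver, are turned back into acetyl-CoA in other tissues by a short mitochondrial pathway that ends in the same product. White fat chiefly stores and releases fatty acids and oxidises far less than muscle or brown fat, but its adipocytes carry the whole pathway.

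Most of the genes were slightly higher in KO. The mean difference was above 0 for 23 of 28 genes and below 0 for 5, where it was above 0 for 10104 of all 18193 genes. The median was 0.13, against 2.86e-05 over all genes. Both comparisons include genes whose values hardly moved between arrays, which are set apart below. The main limma test compared the genotypes without a replicate block. With Benjamini-Hochberg adjustment over all genes at a threshold of 0.05, 3 genes rose: the ketone enzyme Oxct1, the short-chain dehydrogenase Acads and the electron carrier Etfdh. That is 10.7% of the 28, where 2.39% of all genes passed as higher. None of the 28 fell, where 1.64% of all genes passed as lower. At an unadjusted limma p under 0.05 there were 17 higher and 1 lower, where 12.9% of all genes were higher and 10.1% lower. The changes were small, since no member reached 1.5-fold and the largest, that of Oxct1, was 1.42-fold.

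The KO and WT arrays did not overlap for 11 genes that were higher in KO, which is 39.3% of the 28, against 9.20% of all genes. They did not overlap for 1 gene that was lower, against 7.00% of all genes. These shares describe the arrays and are no test.

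Of the 28 genes, 4 hardly moved between arrays (SD over the 8 arrays under 0.01). These were Acot2, Eci2, Etfa and Bdh1, whose genotype means differed by at most 6.38e-05. Such near-constant values made up 78.7% of all probe sets, and how they arose is not known here, so they do not show that these genes were unchanged. Restricting the limma test to the 5173 genes with more spread, called varying here, left 24 of the members, of which 10 passed as higher and 1 as lower. In that test 14.9% of genes passed as higher and 12.2% as lower. With the replicate number as a block in addition, 9 members were higher and 1 lower, where 10.3% and 9.24% of the varying genes were. On average 21 of the 24 varying members were higher and 3 lower. Their median difference was 0.163, against 0.0145 over all 5173 varying genes. Arrays did not overlap for 11 of the 24 as higher and 1 as lower, against 942 and 778 of the 5173. A genotype difference itself adds to the spread that keeps a gene among the varying ones, so these counts and medians are given as a description only.

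With the replicate number as a block over all genes, 0 of the 28 passed in limma, as did 0 genes in all, although 18 members had an unadjusted p under 0.05, where 20.4% of all genes did. The calls of Oxct1, Acads and Etfdh over all genes were thus lost in that fit. With replicates 1 and 2 against 3 and 4 as the block, Acads (adjusted p = 0.0422) and Etfdh (0.0328) passed, where 1.63% of all genes passed as higher. The calls over all genes did not survive the loss of most single arrays. Leaving out each of the 8 arrays in turn left 0 members higher for 6 of them and 1 for the other 2, which were Acads without KO replicate 2 and Hadhb without WT replicate 3. In these 8 limma fits 13 to 18 members had an unadjusted p under 0.05, as did 18.5% to 22.3% of all genes.

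**Figure D1:**
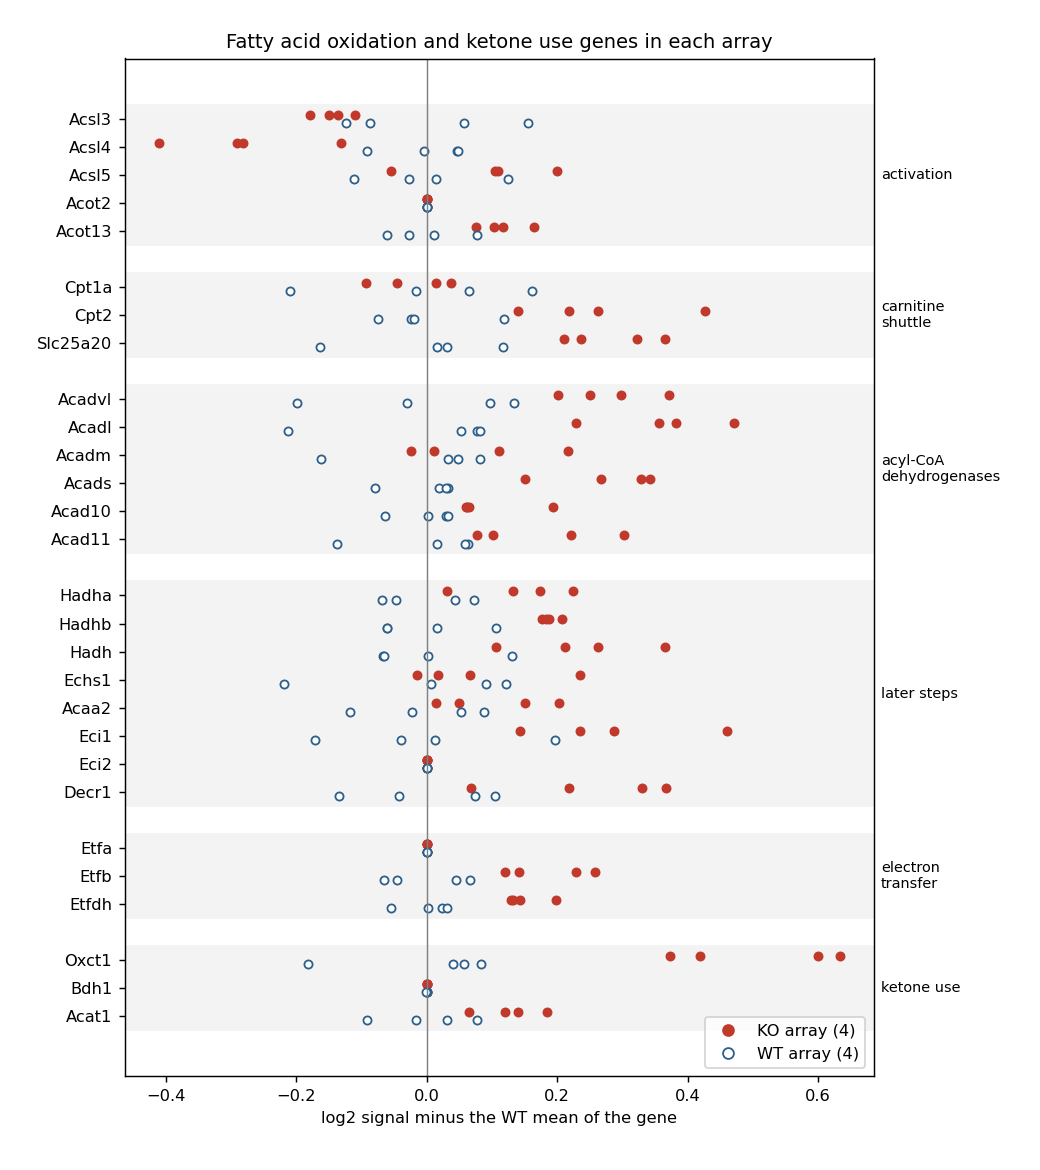
Log2 signal of each of the 28 genes in each array, as the difference from the gene's WT mean (horizontal axis), with KO arrays as filled and WT arrays as open points and genes grouped by step. KO points lie to the right of all WT points for 11 genes and to the left for Acsl4, and the 4 near-constant genes sit on 0.

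The activation step held the one gene whose KO arrays all lay lower. Long-chain acyl-CoA synthetases join a fatty acid to coenzyme A. Acsl4, the family member that prefers arachidonic acid, had signals of 8.47, 8.63, 8.48 and 8.35 in the KO arrays, against 8.76, 8.81, 8.67 and 8.81 in the WT arrays. Every KO array was below every WT array. The difference was -0.28 ± 0.06 (SE, n = 4 each) with an adjusted p of 0.0673, so Acsl4 did not pass over all genes; among varying genes its adjusted p was 0.0233, and 0.0462 when the replicate block was added. Its other varying probe set differed by -0.25, also without overlap.

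Acsl3, found on the endoplasmic reticulum and lipid droplets, differed by -0.14 and Acsl5 by 0.09, both with overlapping groups and adjusted p of 0.251 and 0.510. Thioesterases run the reverse reaction and release the fatty acid again. Acot13 differed by 0.12 (adjusted p = 0.117), and its lowest KO array lay just below the highest WT array. Acot2, the mitochondrial thioesterase, was near constant at 8.88.

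In the carnitine shuttle, the first enzyme and the other 2 did not show the same pattern. Cpt1a, the liver isoform of the outer-membrane transferase that malonyl-CoA inhibits and that limits the rate of the pathway, had 8.93, 9.01, 8.99 and 8.88 in KO and 9.04, 9.13, 8.76 and 8.96 in WT. The groups overlapped fully, with a difference of -0.022 ± 0.082 (SE, n = 4 each; adjusted p = 0.910). The other 2 probe sets of Cpt1a differed by 0.09 and 0.003, so the sign of this small difference rests on the probe set. Cpt2, which returns the acyl group to coenzyme A inside the mitochondrion, had 10.63, 10.35, 10.47 and 10.42 in KO and 10.32, 10.13, 10.18 and 10.19 in WT. All KO arrays were above all WT arrays, by the narrow margin between KO replicate 2 and WT replicate 1, and the difference was 0.26 ± 0.07 (SE). Its adjusted p was 0.0970 over all genes, 0.0341 among varying genes and 0.0318 there with the replicate block.

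Slc25a20, the carrier that exchanges acylcarnitine for carnitine across the inner membrane, had 10.67, 10.59, 10.56 and 10.71 in KO, against 10.36, 10.19, 10.47 and 10.38 in WT. The groups did not overlap, and WT replicate 2 was the lowest array. The difference was 0.28 ± 0.07 (SE, n = 4 each), with an adjusted p of 0.0720 over all genes, 0.0243 among varying genes and 0.0459 there with the block. A less bright probe set gave 0.26 and was likewise without overlap.

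The promoter of Slc25a20 is shown because it was the only one among genes with separated groups that held a DR1 element, the kind of site that PPAR and RXR receptors bind. The sequence is RefSeq's, build GRCm38.p6, chr9:108661886-108662185, plus strand, and runs from 250 bases before the start site to 50 after it. The element is in capitals, 2 mismatches from the hexamer AGGTCA repeated head to tail with 1 base between, and begins at base 7, counting the start site as base 1.
Slc25a20 promoter: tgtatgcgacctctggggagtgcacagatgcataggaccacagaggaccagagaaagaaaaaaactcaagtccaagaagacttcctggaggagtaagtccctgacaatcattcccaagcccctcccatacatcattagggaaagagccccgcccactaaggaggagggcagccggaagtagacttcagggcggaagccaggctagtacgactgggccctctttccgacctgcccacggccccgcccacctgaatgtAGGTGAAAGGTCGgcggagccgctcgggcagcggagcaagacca

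RefSeq promoters of this kind were matched for 24 of the 28 genes, in 25 windows of 300 bases. A DR1 match with at most 2 mismatches over both hexamers, on either strand, stood in 3 of the 25 windows (12.0%), against 3.86% of all 32851 windows. The other 2 were those of Echs1, whose groups overlapped, and Etfa, which was near constant. TCAAGGTCA, the element of the estrogen-related receptors, which holds that hexamer within it, was found in 0 of the 25 windows and in 0.423% of all. A match is a run of letters and not a shown binding site.

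The acyl-CoA dehydrogenases open each round and differ in the chain length they accept. They were higher in KO for 6 of 6 genes, where 10104 of all 18193 genes were, and their median difference was 0.22. Acads, for short chains, had 9.08, 8.97, 9.16 and 9.15 in KO and 8.85, 8.74, 8.84 and 8.85 in WT. The lowest KO array was above the highest WT array, and Acads rose by 0.27 ± 0.05 (SE, n = 4 each) with an adjusted p of 0.0422. Among varying genes its adjusted p was 0.0157, and 0.0306 once the block was added, but it did not pass over all genes with the block (0.0755).

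Acadl, for long chains, showed the largest difference of the family, with 12.03, 11.90, 12.06 and 12.15 in KO and 11.75, 11.46, 11.73 and 11.76 in WT. WT replicate 2 lay well below the other WT arrays. The difference was 0.36 ± 0.08 (SE) and missed the threshold over all genes (adjusted p = 0.0706), while it passed among varying genes (0.0204) and there with the block (0.0246). Without WT replicate 2 the difference was 0.29.

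Acadvl, the membrane-bound enzyme for very long chains, had 10.84, 10.74, 10.91 and 10.79 in KO, against 10.64, 10.34, 10.68 and 10.51 in WT. Its groups did not overlap, and the difference of 0.28 ± 0.08 (SE) had adjusted p of 0.111 over all genes, 0.0378 among varying genes and 0.0334 there with the block. Acadm, for medium chains, differed by only 0.08 with overlapping groups (adjusted p = 0.594), and by 0.025 without WT replicate 2. The less studied relatives Acad10 (0.09) and Acad11 (0.18) were higher in KO without overlap, and neither passed in any of these 3 fits. Acad11 was read from an _s_at probe set, and its less bright probe set, without such a suffix, differed by 0.17 with overlapping groups. Thus 5 of the 6 dehydrogenases had separated groups in their brightest probe set, and the medium-chain enzyme was the one that did not. All 6 were varying genes, of which 942 of 5173 were separated as higher, against 9.20% of all genes.

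**Figure D2:**
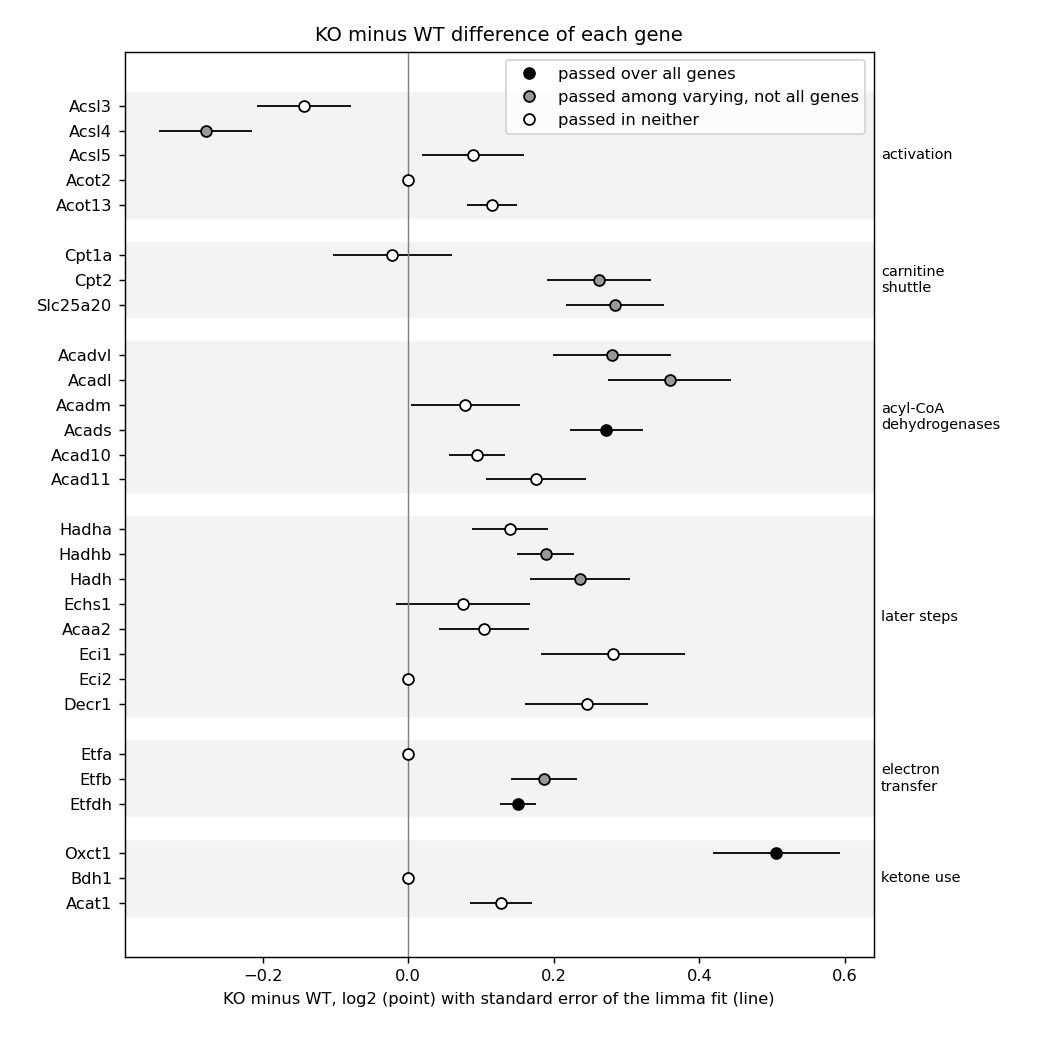
KO minus WT difference in log2 signal of each of the 28 genes (point) with its standard error (line), grouped by step. Oxct1, Acads and Etfdh (black) passed over all genes, 8 others (grey) passed among varying genes but not over all genes, and Acsl4 is the one of them that lies below 0.

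The later steps held 8 genes, of which 7 were higher in KO on average, where 10104 of all 18193 genes were. In limma 0 of the 8 passed over all genes, where 2.39% of all genes passed as higher. At an unadjusted p under 0.05, 5 were higher, against 12.9% of all genes. Hadha and Hadhb encode the 2 subunits of the trifunctional protein, which carries out hydration, dehydrogenation and thiolysis of long chains. Hadhb had 11.54, 11.54, 11.55 and 11.57 in KO and 11.38, 11.30, 11.47 and 11.30 in WT. The KO arrays lay within a narrow band above every WT array. The difference of 0.19 ± 0.04 (SE, n = 4 each) had an adjusted p of 0.0555 over all genes, 0.0296 among varying genes and 0.0644 there with the replicate block. A second probe set of Hadhb differed by 0.12, also without overlap. Hadha differed by 0.14 with overlapping groups (adjusted p = 0.179).

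The 2 subunit genes are neighbours that are read away from each other, with RefSeq start sites 273 bases apart, so their promoter windows overlap. The window of Hadhb is shown for this arrangement (GRCm38.p6, chr5:30155003-30155302, plus strand), with the 228 bases that also belong to the window of Hadha, on the minus strand, in capitals. It held neither of the searched elements.
Hadhb promoter: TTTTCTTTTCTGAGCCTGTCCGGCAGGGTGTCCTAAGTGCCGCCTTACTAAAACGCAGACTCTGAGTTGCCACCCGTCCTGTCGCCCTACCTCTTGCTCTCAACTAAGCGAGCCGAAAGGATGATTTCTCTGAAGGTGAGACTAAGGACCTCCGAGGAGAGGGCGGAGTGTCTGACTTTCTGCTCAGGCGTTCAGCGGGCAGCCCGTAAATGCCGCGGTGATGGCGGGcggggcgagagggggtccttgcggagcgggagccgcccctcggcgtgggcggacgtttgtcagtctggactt

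Hadh, the dehydrogenase for medium and short hydroxyacyl chains, had 12.69, 12.43, 12.58 and 12.53 in KO and 12.32, 12.26, 12.26 and 12.45 in WT. KO replicate 2 fell just below WT replicate 4, so the groups overlapped. The difference was 0.24 ± 0.07 (SE), with adjusted p of 0.114 over all genes, 0.0430 among varying genes and 0.0636 there with the block. Its other 2 probe sets differed by 0.24 and 0.20. Eci1 and Decr1 prepare unsaturated fatty acids by moving or removing double bonds. Eci1 had 11.09, 10.77, 10.87 and 10.92 in KO, against 10.83, 10.46, 10.64 and 10.59 in WT. Only WT replicate 1 reached into the KO range, and each KO array was above the WT array of its own number. The difference was 0.28 ± 0.10 (SE), with adjusted p of 0.161 over all genes, 0.0587 among varying genes and 0.0293 there with the block.

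Decr1 had 11.35, 11.05, 11.20 and 11.31 in KO, against 11.05, 10.84, 10.94 and 11.08 in WT, a difference of 0.25 ± 0.08 (SE). Its groups overlapped through KO replicate 2. The adjusted p was 0.156 over all genes, 0.0602 among varying genes and 0.0324 there with the block. A dimmer probe set of Decr1 differed by more, 0.44, without overlap (adjusted p = 0.0477 over all single-gene probe sets). The hydratase Echs1 (0.08) and the thiolase Acaa2 (0.10) had overlapping groups and adjusted p of 0.682 and 0.375. Without WT replicate 2 the difference of Echs1 was 0.003, and without WT replicate 3 that of Acaa2 was 0.065. The other 2 probe sets of Acaa2 differed by 0.08, with overlap, and 0.18, without. Eci2 was near constant at 10.45.

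In electron transfer the values of the 3 genes differed in kind. Etfb, the beta subunit of the flavoprotein, had 11.20, 11.06, 11.17 and 11.08 in KO, against 10.98, 10.89, 11.004 and 10.87 in WT. The groups did not overlap, with a difference of 0.19 ± 0.05 (SE, n = 4 each) and adjusted p of 0.0755 over all genes, 0.0379 among varying genes and 0.0445 there with the block. Etfdh, the oxidoreductase that passes the electrons on to ubiquinone, had 10.20, 10.20, 10.27 and 10.21 in KO and 10.07, 10.01, 10.09 and 10.10 in WT. Both groups were tight and separate. Etfdh rose by 0.15 ± 0.02 (SE), with an adjusted p of 0.0346 over all genes and 0.0338 among varying genes, which the replicate block ended in both (0.0981 and 0.0677). Centring each array on its median also ended the call over all genes (0.0526). The partner subunit gene Etfa was near constant at 11.86.

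Ketone use held the largest difference of the whole set. Oxct1 encodes the CoA transferase that activates acetoacetate and is absent from hepatocytes, so that the liver exports ketone bodies. It had 11.39, 11.17, 11.35 and 11.13 in KO and 10.84, 10.81, 10.57 and 10.79 in WT. All KO arrays lay clear of the WT arrays, and WT replicate 3 was the lowest. Oxct1 rose by 0.51 ± 0.09 (SE, n = 4 each) with an adjusted p of 0.0376. Among varying genes the adjusted p was 0.00939, and 0.0319 with the block. Over all genes it passed neither with the replicate block (0.153), nor with replicates 1 and 2 against 3 and 4 as a block (0.0534), nor with its probe sets averaged (0.0575).

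Oxct1 was read by 4 probe sets, and the KO and WT arrays were separate in each of them. The differences were 0.51, 0.44, 0.56 and 0.62 from the brightest to the dimmest probe set. The exact permutation p of each was 0.0286, two-sided, the smallest that 4 against 4 arrays can give. Probe sets of 1 gene share their arrays and are not replicates. Across all members with more than 1 varying probe set, the probe sets had the same sign in 9 of 10 genes, Cpt1a being the exception.

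**Figure D3:**
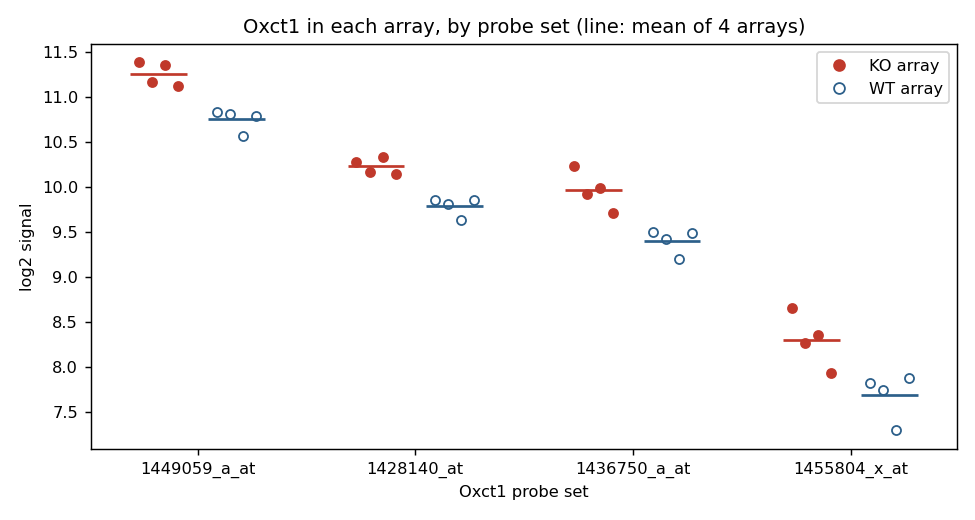
Log2 signal of Oxct1 in each array, for its 4 probe sets from bright to dim, with KO arrays (filled) left of WT arrays (open) and a line at each group's mean. In every probe set the lowest KO array is above the highest WT array.

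The promoter of Oxct1 is given as that of the gene with the largest difference (RefSeq, GRCm38.p6, chr15:4026178-4026477, plus strand). It held neither of the searched elements, so no base is in capitals.
Oxct1 promoter: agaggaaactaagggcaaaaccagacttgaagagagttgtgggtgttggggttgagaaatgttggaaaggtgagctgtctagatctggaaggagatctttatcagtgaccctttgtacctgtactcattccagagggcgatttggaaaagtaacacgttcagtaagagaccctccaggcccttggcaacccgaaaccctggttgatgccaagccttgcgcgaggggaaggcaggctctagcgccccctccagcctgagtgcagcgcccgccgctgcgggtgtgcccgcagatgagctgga

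Acat1, the mitochondrial thiolase that splits acetoacetyl-CoA into acetyl-CoA, differed by 0.13 with overlapping groups (adjusted p = 0.148). Its other 2 probe sets differed by 0.21, without overlap, and 0.19. Bdh1, the dehydrogenase that interconverts hydroxybutyrate and acetoacetate, was near constant at 6.12. In the wider list of related genes Slc16a1, a carrier of lactate and ketone bodies, differed by -0.49 with overlapping groups. Its adjusted p was 0.260 over all genes, 0.103 among varying genes and 0.0342 there with the block. Slc16a7, of the same family, differed by 0.50 without overlap (adjusted p of 0.215, 0.0774 and 0.0781 in the same fits).

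The same arrays were often at the low or the high end. Among the 24 varying genes, WT replicate 2 was the lowest array for 14, and KO replicate 1 was the highest for 11. The mean over all 28 genes was 10.21, 10.12, 10.18 and 10.17 in the KO arrays, against 10.08, 9.97, 10.04 and 10.05 in the WT arrays. Every KO array stood above every WT array, with a difference of 0.14. The 18S ribosomal RNA control probe sets were also higher in KO in every array, by 0.44, 0.22 and 0.28, and their part in the result was not tested.

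Other cell types can carry these genes, muscle above all, and in bulk tissue fewer cells of a type and less RNA per cell cannot be told apart. The mean of 22 skeletal muscle markers ran from 6.48 to 8.99 in KO and from 6.50 to 8.64 in WT, with 0 of 22 passing in limma and 0 at an unadjusted p under 0.05. It was 8.37 to 8.99 in replicates 1 and 2 and 6.48 to 7.004 in replicates 3 and 4. The mean difference of the fatty acid oxidation and ketone genes was 0.14 in replicates 1 and 2 and again 0.14 in replicates 3 and 4. Of the 24 varying members, 21 were higher in KO in both sets, 2 were lower in both, and Cpt1a had opposite signs. The matching count over all genes was not taken. Members share their arrays and are not replicates, so the count is a description only. In replicates 3 and 4 alone, a choice made after seeing the data, 0 members passed in limma, 9 had an unadjusted p under 0.05, where 11.1% of all genes did, and the median difference was 0.15.

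Macrophage markers were also higher in KO on average, for 12 of 12 genes and with a list mean difference of 0.35. They did not differ alike in both replicate sets. Their mean over 12 genes was 9.65 to 9.85 in KO and 8.68 to 10.07 in WT, with differences of -0.17 in replicates 1 and 2 and 0.88 in replicates 3 and 4, and 0 of 12 passed (0 at an unadjusted p under 0.05). Of 14 mature adipocyte markers 3 rose, namely Adipoq (0.25), resistin Retn (0.26) and the carbonic anhydrase Car3 (0.28), and 0 fell. At an unadjusted p under 0.05, 5 were higher and 3 lower, where 12.9% and 10.1% of all genes were. Among varying genes 4 passed as higher and 1 as lower, Plin4 (-0.18, adjusted p = 0.0395). With the replicate block added, 3 passed as higher and 1 as lower, Lep (-0.38, adjusted p = 0.0331). In that fit 10.3% and 9.24% of varying genes passed. Of the 14 markers, 5 were higher and 3 lower without overlap, against 9.20% and 7.00% of all genes. The list mean of the 14 ran from 12.37 to 12.47 in KO and from 12.30 to 12.38 in WT. Of 9 brown adipocyte markers 0 passed over all genes (2 higher at an unadjusted p under 0.05). Among varying genes with the block Cox8b (0.54; adjusted p = 0.0301) and Pank1 (0.24; adjusted p = 0.0393) passed as higher, both without overlap. The brown marker mean was 7.02 to 7.16 in KO and 6.90 to 7.07 in WT. Of 3 erythrocyte markers 0 passed (1 at an unadjusted p under 0.05), with 6.78 to 6.87 in KO and 6.62 to 6.86 in WT. The part of these cell types in the result was not tested.

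**Figure D4:**
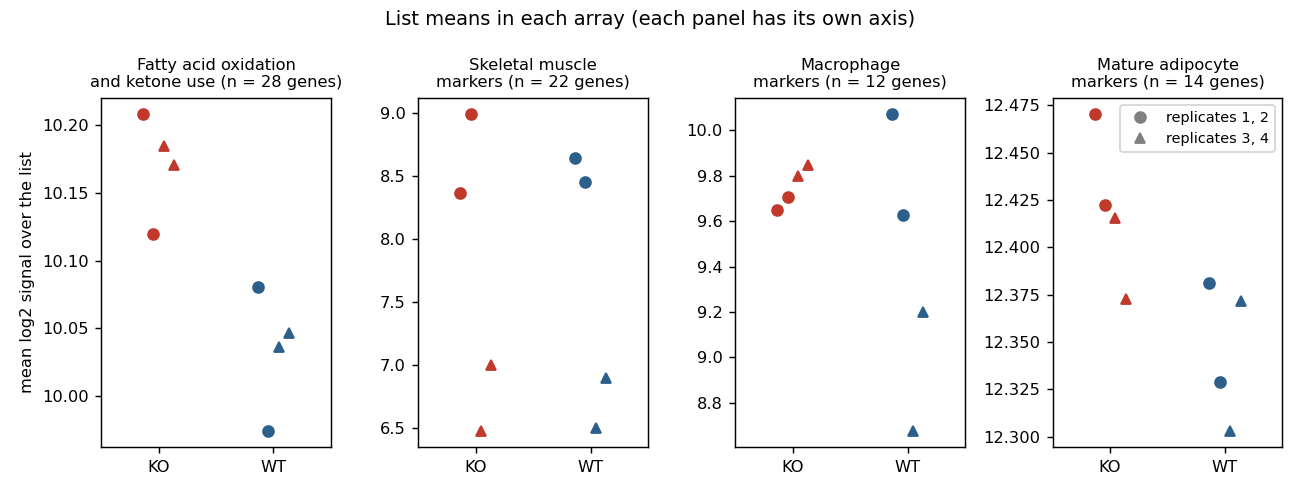
Mean log2 signal per array over the 28 fatty acid oxidation and ketone genes and over markers of skeletal muscle, macrophages and mature adipocytes, KO left of WT, with circles for replicates 1 and 2 and triangles for replicates 3 and 4. The first panel separates KO (10.12 to 10.21) from WT (9.97 to 10.08), while the muscle panel separates the replicate sets.

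Over all genes no regulator of the pathway passed. Of 18 measured genes that control fatty acid oxidation or the choice of fuel, 0 rose and 0 fell in limma. At an unadjusted p under 0.05, 1 was higher and 4 were lower, where 12.9% and 10.1% of all genes were. The median difference was -9.61e-05 over the 18 and -0.100 over the 11 of them that vary. Among varying genes 2 passed. Rxra, the partner receptor of PPARs, had 8.83, 8.73, 8.63 and 8.70 in KO and 9.16, 8.84, 8.94 and 9.15 in WT. Every KO array was below every WT array, and the difference of -0.30 ± 0.09 (SE) had an adjusted p of 0.106 over all genes, 0.0345 among varying genes and 0.0427 there with the block. Acaca, which makes malonyl-CoA for fatty acid synthesis, differed by 0.24 with adjusted p of 0.126, 0.0477 and 0.0725 in the same fits, and its groups overlapped. Pdk4, the kinase that shuts pyruvate dehydrogenase and is raised by fasting, had 10.22, 10.73, 10.41 and 11.41 in KO and 11.52, 11.24, 11.36 and 11.64 in WT. KO replicate 4 alone reached the WT range, and the difference of -0.75 ± 0.27 (SE) had an adjusted p of 0.168. The fatty acid receptor Ppara differed by 0.31 (0.369), its coactivator gene Ppargc1a by -0.10 (0.614), the adipocyte receptor Pparg by -0.08 (0.140), and Acacb, which makes the malonyl-CoA that inhibits Cpt1 enzymes, by -0.18 (0.519). Esrra was near constant at 7.79. Ucp2 was not analysed here.

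A further list held 28 measured genes of related acyl-CoA, propionate and ketone reactions. Here 3 rose and 0 fell, where 2.39% and 1.64% of all genes did. At an unadjusted p under 0.05, 12 were higher and 1 was lower, against 12.9% and 10.1% of all genes. On average 24 of the 28 were higher, where 10104 of all 18193 genes were. The median difference was 0.004 over all 28, of which 11 were near constant, and 0.20 over the 17 that vary, against 0.16 over the 24 varying members of the fatty acid oxidation and ketone set. Pcca, the alpha subunit of the propionyl-CoA carboxylase that handles odd-chain ends, rose by 0.59 ± 0.075 (SE; adjusted p = 0.0229), with 9.98, 9.69, 9.89 and 9.98 in KO and 9.36, 9.24, 9.22 and 9.35 in WT. Acad9, a dehydrogenase relative that also assembles complex I, rose by 0.35 (0.0283), and Nudt19, a hydrolase of coenzyme A, by 0.32 (0.0359). Their KO and WT arrays did not overlap, and all 3 also passed among varying genes with the replicate block. Acot9, the 1 gene lower at an unadjusted p under 0.05, differed by -0.25, also without overlap. Its adjusted p was 0.068 over all genes, 0.0259 among varying genes and 0.0318 there with the block.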

How the data were processed

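Each mouse gave 1 total RNA sample, from which biotinylated RNA was made for a 3' expression array, per the labels' protocols. The authors deposited log2 values for 45101 probe sets in 8 arrays, running from 4.93 to 14.3, with array medians of 6.73 to 6.74. The log2 scale was read from the values. The submitters' processing notes name R 2.14.0. How background, normalisation and summarisation were handled is not given in the sources used here. Signal over background was not analysed, and the number of arrays limits precision.

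The platform annotation paired 34945 probe sets with 1 gene, control probe sets left out, and each of 18193 genes took its brightest probe set. Of the members, 4 were read from _s_at or _x_at probe sets (Acsl3, Acad11, Hadh and Acaa2), whose probes can also bind related sequences.

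Genotypes were tested by limma 3.58.1 (lmFit, eBayes, two-sided) in R 4.3.3, with p-values adjusted over all genes by Benjamini-Hochberg at 0.05. Near-constant genes left limma 0.332 prior degrees of freedom, against 2 among varying genes. In simulated KO against WT data over 18193 genes a true change of 0.3 log2 was called in 18% of changed genes, one of 0.6 in 48%, one of 1 in 80% and one of 1.5 in 86%. Alternatives covered pairing, genes tested, dim genes, the probe set, normalisation, the variance model and leaving out arrays.

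Members and lists were chosen with earlier results of these data known. Named members passed a limma fit with or without varying genes and the block, or had separated groups at least 0.2 apart; Cpt1a, Oxct1 and set regulators were named regardless. Rxra, Acaca, Cox8b, Cidea, Pank1, Plin4, Lep and Acot9 were named after their values were seen.

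Labels number replicates 1 to 4 in each genotype. Across genes, same-numbered KO and WT arrays deviated from their group means with correlations of 0.315, 0.486, 0.189 and 0.244, all over the 0.1 required. From the data alone, the numbers were therefore used as pairs in the fits with the replicate block. The main fit did not use them. KO replicate 3 correlated more with WT replicate 4 (0.364) and KO replicate 4 more with WT replicate 3 (0.266) than with their own numbers, so within replicates 3 and 4 the pairing is weakly based.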

Additional observations from a re-analysis of the deposited data

Results flagged for a closer look

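Of 62 groups of 4 arrays checked (24 varying genes, 6 step means and the mean of all members, in each genotype), 4 had 1 array set well apart from the rest of its group. About 1 group in 20 would by chance. WT replicate 2 was low for Acadl (11.46, against 11.73 to 11.76 in the other WT arrays) and for Acads (8.74, against 8.84 to 8.85). WT replicate 3 was low for Oxct1 (10.57, against 10.79 to 10.84). KO replicate 1 was high for Acad10 (7.45, against 7.316 to 7.32 in the other KO arrays).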

How the results depend on the processing

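The median difference of the members kept its sign and stayed within 0.12 to 0.16 under every alternative run, and within 0.13 to 0.15 when single arrays were left out. The blocks and the variance model could not move it, since each genotype has 1 array per replicate number. Testing only varying genes or genes above the median brightness dropped members but left each difference unchanged. For these settings the steady median is therefore no check. Counts of calls moved more. Against 3 members higher and 733 genes in all over all genes, the replicate block left 0 and 0, varying genes only gave 10 and 1402, varying genes with the replicate block 9 and 1011, and replicates 3 and 4 alone 0 and 0. Leaving out single arrays gave 0 to 1 members higher and 0 to 0 lower, with 10 genes in all without KO replicate 3 and 131 to 253 without any other array. Against 0 lower, 1 member was lower among varying genes (also with the replicate block), among genes above the median brightness, with probe sets averaged, and with arrays centred on their medians, each time Acsl4. Cpt1a turned its sign to 0.022 with probe sets averaged and 0.073 in replicates 3 and 4 alone, and ranged from -0.092 to 0.032 when single arrays were left out. The cause of these moves was not tested. The varying-gene fit with the block and the fit of replicates 3 and 4 were added after seeing the data. The 4 near-constant members were left out of the comparison of single genes across settings.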
